A study of Mus musculus with 20 samples.

Results

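The Kcnip genes and the Kv4 channel genes Kcnd2 and Kcnd3 were followed over 8 groups of mouse brain arrays. All probe sets that the array annotation gives to Kcnip1, Kcnip2, Kcnip3, Kcnip4, Kcnd2 or Kcnd3 were taken, which made 14 of the 22690 probe sets. They stand for 6 genes. A probe set is a group of short oligonucleotides that reads out 1 transcript or a set of related ones. The genes were chosen because Kcnip3 had been lower in knock-in cerebellum on these same arrays. The cerebellar genotype difference of these genes is therefore described here with no test.

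Total RNA was measured in knock-in and wild-type mouse brain, in cerebellum and in forebrain. The groups were knock-in and wild-type cerebellum at 4 weeks, knock-in and wild-type cerebellum at 11 weeks, and the same 4 combinations in forebrain, with 3 arrays per group at 4 weeks and 2 at 11 weeks, 20 arrays in all. The labels give neither the knocked-in gene nor its allele, the strain or any treatment. The later age, called 11 weeks here after the descriptions, is 12 weeks by the titles. For 7 of the 10 arrays grouped as forebrain by their title code, other label fields name cerebellum, and for knock-in forebrain 4 weeks replicate 3 the description does so too. The expression of region markers followed the title code: Camk2a, a kinase of forebrain excitatory neurons, lay between 4828 and 8321 in knock-in and 9218 and 14567 in wild-type forebrain, and below the limit of the filter on all 10 cerebellar arrays. Gabra6, a receptor subunit of cerebellar granule neurons, lay below that limit on all 10 forebrain arrays and between 35953 and 46884 in cerebellum. Nothing in the labels says that arrays come from separate mice, so p-values measure the spread between samples, which may be technical, and cerebellum and forebrain arrays may share animals.

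Kv4 channels carry the A-type potassium current, which opens below the threshold for firing and damps signals that travel back into dendrites. The channel pore is built from Kv4 subunits such as those encoded by Kcnd2 (Kv4.2) and Kcnd3 (Kv4.3). The Kcnip genes encode the Kv channel-interacting proteins, or KChIPs, cytosolic EF-hand calcium sensors that bind the amino terminus of Kv4 subunits, bring more channels to the cell surface and set how fast they inactivate. The product of Kcnip3 is known under further names: calsenilin, for its binding to presenilins, and DREAM, for its binding to DNA as a calcium-regulated repressor. In cerebellum, granule neurons are a main site of Kv4.2, while forebrain pyramidal neurons carry it in their dendrites.

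Values are intensities on a linear scale, and differences are on the log2 scale after an offset of 16 was added. A probe set was kept for testing where it exceeded the 40th percentile of its array on 2 arrays or more, a limit with a median intensity of 681 over the arrays. Of the 14 member probe sets, 10 were kept: 2 of Kcnip1, 1 of Kcnip2, 2 of Kcnip3, 2 of Kcnip4 and 3 of Kcnd2. The other 4 were 2 of Kcnip1, 1 of Kcnip2 and the only one of Kcnd3. They ranged from 68.4 to 966 and exceeded the limit on 0 or 1 of the 20 arrays, so Kcnd3 was not measured well enough to test. Those of Kcnip1, 1433156_at and 1454504_at, had medians of 245 and 398, and 1421783_a_at of Kcnip2 had a median of 438. The Kcnd3 probe set 1426070_a_at lay between 150 and 966 over all arrays. Levels of different probe sets are not compared, since each binds with its own efficiency.

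The promoter windows of Kcnip3 and Kcnd2 are shown because probe sets of these genes were lower in knock-in arrays of both regions. Each window is the 250 bases before a RefSeq transcription start of the GRCm38.p6 assembly, printed on the gene's own strand. Kcnip3 has 3 starts in the RefSeq table, and the outermost and the innermost are shown. Capitals mark GGGCGG, the GC box, and GTCA, the core of the element that DREAM is known to bind, each searched on both strands (so TGAC is GTCA on the opposite strand).
Kcnip3 outermost start, chr2:127522095-127522344, minus strand: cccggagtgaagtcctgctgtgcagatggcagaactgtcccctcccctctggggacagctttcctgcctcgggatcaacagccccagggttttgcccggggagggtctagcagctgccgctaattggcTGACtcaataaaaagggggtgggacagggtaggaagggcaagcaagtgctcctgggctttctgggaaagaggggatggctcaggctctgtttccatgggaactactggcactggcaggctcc
Kcnip3 innermost start, chr2:127482500-127482749, minus strand: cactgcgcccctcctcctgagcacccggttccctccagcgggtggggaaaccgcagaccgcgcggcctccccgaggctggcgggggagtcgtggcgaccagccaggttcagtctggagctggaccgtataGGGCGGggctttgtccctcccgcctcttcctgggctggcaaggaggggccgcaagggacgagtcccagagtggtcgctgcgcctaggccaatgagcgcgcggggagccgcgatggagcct
Kcnd2, chr6:21215096-21215345, plus strand: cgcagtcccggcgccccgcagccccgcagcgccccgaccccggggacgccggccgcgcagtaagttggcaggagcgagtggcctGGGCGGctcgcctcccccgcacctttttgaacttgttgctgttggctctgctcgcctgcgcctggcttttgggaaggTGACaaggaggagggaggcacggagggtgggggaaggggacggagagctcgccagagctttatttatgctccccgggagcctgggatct
The outermost Kcnip3 window was 60% G or C with 4 CpG dinucleotides, and the innermost was 71.2% with 23. The Kcnd2 window was 68.8% with 22 CpG dinucleotides. Over all 32851 windows of that length, the medians were 52.4% and 6. GGGCGG was in the innermost Kcnip3 window and in the Kcnd2 window, starting 120 and 166 bases before the start, and in 32.7% of all windows. GTCA was in the outermost Kcnip3 and the Kcnd2 windows, 122 and 89 bases before the start, and in 80.2% of all windows. TGACGTCA, the cyclic AMP response element, TATAAA and CACGTG were searched in the same way and were in none of the printed windows. They occur in 1.55%, 12.4% and 6.02% of all windows. The arrays do not show which start was used.

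Kcnip3 was lower in knock-in than in wild-type forebrain by its probe set 1418544_at. At 4 weeks this probe set read 3643, 3414 and 4531 on the knock-in forebrain arrays, against 5585, 6228 and 7553 on the wild-type ones. At 11 weeks it read 2904 and 3490 in knock-in forebrain, against 7871 and 8683 in wild type. Every knock-in forebrain array lay below every wild-type forebrain array of its age. The log2 difference averaged over both ages was -1.06 ± 0.16 (SE), which is 0.481 times the wild-type level (limma, adjusted p = 0.00122). It was -0.74 ± 0.20 at 4 weeks (adjusted p = 0.0354) and -1.37 ± 0.24 at 11 weeks (adjusted p = 0.0159). The single-age calls were less firm than that over ages. With 1 array left out the 4-week difference was -0.86 to -0.62, and its call was lost without replicate 1 or 2 of knock-in or replicate 2 or 3 of wild type (adjusted p up to 0.117). The 11-week difference was -1.50 to -1.24, and its call was lost without any 1 of the 4 arrays (adjusted p up to 0.0922). The change of this difference between ages, -0.63 ± 0.31, did not pass the test (adjusted p = 0.817). In such bulk samples, fewer cells of a type and less RNA per cell cannot be told apart.

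The other Kcnip3 probe set, 1449129_a_at, showed a smaller difference in forebrain. The suffix _a_at marks a probe set that recognises several transcripts of its gene, and the array annotation names the same sequence record for both Kcnip3 probe sets. At 4 weeks it read 2233, 2891 and 3261 on knock-in forebrain arrays, against 3097, 3252 and 3421 on wild-type ones, and the groups overlapped. At 11 weeks it read 2064 and 1806 in knock-in forebrain, against 2820 and 3403 in wild type, with no overlap. Averaged over ages the difference was -0.46 ± 0.14 (adjusted p = 0.0444). This call was lost when any 1 of 9 of the 10 forebrain arrays was left out, all but replicate 3 of knock-in forebrain at 4 weeks (adjusted p up to 0.152), while that of 1418544_at was kept without any 1 of them (highest adjusted p = 0.00683).

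**Figure D1:**
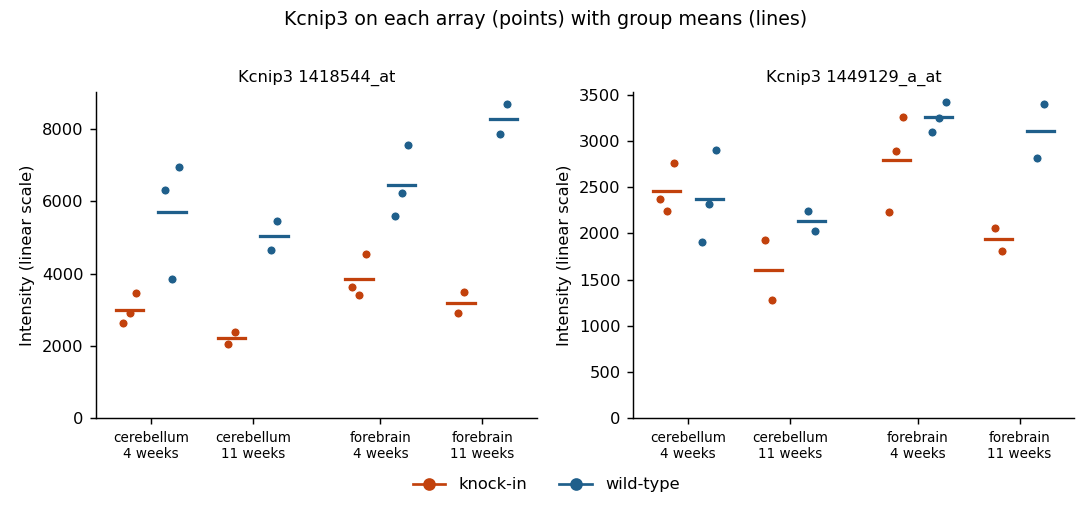
Kcnip3 intensity (linear scale, from 0) on each array, left for probe set 1418544_at and right for 1449129_a_at. Points are arrays, lines are group means, and knock-in stands left of wild type in each region and age. By 1418544_at the knock-in arrays of each region and age lie wholly below the wild-type ones. By 1449129_a_at the genotypes overlap at 4 weeks in both regions.

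In cerebellum, where the gene was chosen, the same split between both Kcnip3 probe sets was present. By 1418544_at the knock-in cerebellum arrays read 2628, 2911 and 3474 at 4 weeks, against 6311, 3865 and 6949 in wild type. At 11 weeks they read 2042 and 2390, against 4646 and 5447 in wild type. Wild-type replicate 2 at 4 weeks was nearest to the knock-in arrays, and no array overlapped. The log2 difference was -0.89 ± 0.20 at 4 weeks (-1.15 without that replicate) and -1.18 ± 0.24 at 11 weeks. By 1449129_a_at the knock-in arrays read 2369, 2247 and 2759 at 4 weeks, against 1911, 2322 and 2901 in wild type, a difference of 0.06 ± 0.18 with full overlap. At 11 weeks they read 1930 and 1284, against 2244 and 2022 in wild type, a difference of -0.43 ± 0.22.

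Whether both Kcnip3 probe sets differed between genotypes by the same amount was asked within each array, by the log2 ratio of 1418544_at over 1449129_a_at. At 4 weeks it averaged 0.47 ± 0.23 over knock-in forebrain arrays, against 0.97 ± 0.15 over wild-type ones (SD, n = 3 each). At 11 weeks it averaged 0.72 ± 0.32 over knock-in arrays, against 1.41 ± 0.09 over wild-type ones (SD, n = 2 each). The genotypes did not overlap at either age. The mean knock-in minus wild-type difference was -0.60, with p = 0.0167 by an exact two-sided permutation test within age. That is the smallest p that its 120 permutations allow. For cerebellum the knock-in average was 0.28 ± 0.12 at 4 weeks, against 1.23 ± 0.49 for wild type, and 0.48 ± 0.57 at 11 weeks, against 1.23 ± 0.27. The mean difference of -0.85 is given with no test. The ratio shows unequal change of both probe sets and does not tell which transcripts they bound.

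**Figure D2:**
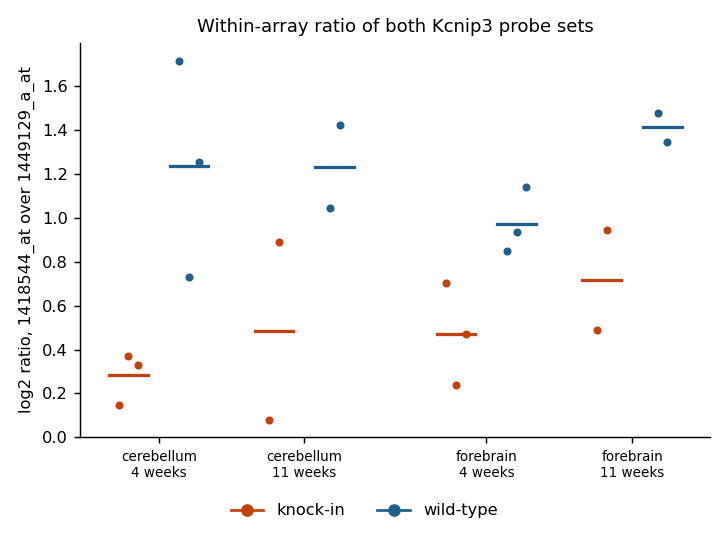
Within-array log2 ratio of the Kcnip3 probe sets 1418544_at over 1449129_a_at for each array (points), with group means (lines). Its level also holds the difference in binding between the probe sets, so only the distance between genotypes is read: knock-in means are 0.28 to 0.72 and wild-type means 0.97 to 1.41.

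Over the 8 groups, 1418544_at was highest in wild-type forebrain at 11 weeks (8277 ± 574) and then in wild-type forebrain at 4 weeks (6455 ± 1003), wild-type cerebellum at 4 weeks (5708 ± 1628) and wild-type cerebellum at 11 weeks (5046 ± 566). The knock-in groups followed: forebrain at 4 weeks (3862 ± 590), forebrain at 11 weeks (3197 ± 414), cerebellum at 4 weeks (3005 ± 431) and cerebellum at 11 weeks (2216 ± 246). All 4 wild-type means stood above all 4 knock-in means. Errors are SDs over 3 arrays at 4 weeks and 2 at 11 weeks. The ranges of wild-type forebrain at 4 weeks and wild-type cerebellum at both ages were close to each other or overlapped, so their order is not resolved. By 1449129_a_at the highest group was wild-type forebrain at 4 weeks (3257 ± 162) and the lowest knock-in cerebellum at 11 weeks (1607 ± 457).

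Kcnd2, which encodes the pore subunit Kv4.2, was lower in knock-in forebrain by 2 of its 3 probe sets. Probe set 1422834_at read 1522, 2046 and 1769 on knock-in forebrain arrays at 4 weeks, against 2159, 2306 and 2683 on wild-type ones. At 11 weeks it read 1760 and 1838 in knock-in forebrain, against 2522 and 2431 in wild type. Every knock-in array was below every wild-type array of its age, and the difference over ages was -0.44 ± 0.10, or 0.737 times the wild-type level (adjusted p = 0.0107). It passed at 4 weeks (-0.42 ± 0.12, adjusted p = 0.0475) and was -0.46 ± 0.15 at 11 weeks (adjusted p = 0.161). The 4-week call was lost without replicate 1 or 3 of knock-in or replicate 2 or 3 of wild type (-0.53 to -0.32, adjusted p up to 0.170).

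Probe set 1450773_at of Kcnd2 read 3958, 4109 and 3895 on knock-in forebrain arrays at 4 weeks, against 4156, 4872 and 5012 on wild-type ones. At 11 weeks it read 3589 and 3402 in knock-in forebrain, against 5190 and 5586 in wild type. The genotypes were again apart at each age, by the narrow margin of replicate 2 of knock-in and replicate 1 of wild type at 4 weeks. The difference over ages was -0.42 ± 0.09, or 0.746 times wild type (adjusted p = 0.00721). It was -0.23 ± 0.11 at 4 weeks (adjusted p = 0.203) and -0.62 ± 0.13 at 11 weeks (adjusted p = 0.0415), and its change between ages did not pass (-0.40 ± 0.17, adjusted p = 0.777). Both probe sets kept their calls over ages without any 1 forebrain array, with a highest adjusted p of 0.0430 for 1422834_at and 0.0375 for 1450773_at. The 11-week call of 1450773_at was lost without any 1 of the 4 arrays (-0.67 to -0.57, adjusted p up to 0.259).

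The remaining probe set of Kcnd2, 1422835_at, overlapped between genotypes in forebrain. It read 4011, 3926 and 4318 on knock-in arrays at 4 weeks, against 3251, 5021 and 4876 on wild-type ones, and 4639 and 3997 at 11 weeks, against 5094 and 4402. The difference over ages was -0.11 ± 0.11 with a 95% interval from -0.34 to 0.13 (adjusted p = 0.552). The estimates of the 3 Kcnd2 probe sets thus differed in size, but their 95% intervals overlapped and no test compared them.

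In cerebellum Kcnd2 read lower in knock-in than in wild type by the same 2 probe sets, given here with no test. Probe set 1422834_at read 6271, 6588 and 5707 on knock-in cerebellum arrays at 4 weeks, against 7831, 9568 and 8973 in wild type, and 5469 and 4774 at 11 weeks, against 7908 and 7736. Its log2 difference was -0.56 ± 0.10 over ages. Probe set 1450773_at averaged 10977 ± 840 over knock-in cerebellum arrays at 4 weeks, against 14064 ± 375 over wild-type ones (SD, n = 3 each), and 8774 ± 1478 at 11 weeks, against 11969 ± 1042 (SD, n = 2 each). Its difference was -0.41 ± 0.09. Neither probe set overlapped between genotypes at either age. For 1422835_at the difference was -0.22 ± 0.11, and its genotypes overlapped at 4 weeks but not at 11 weeks.

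**Figure D3:**
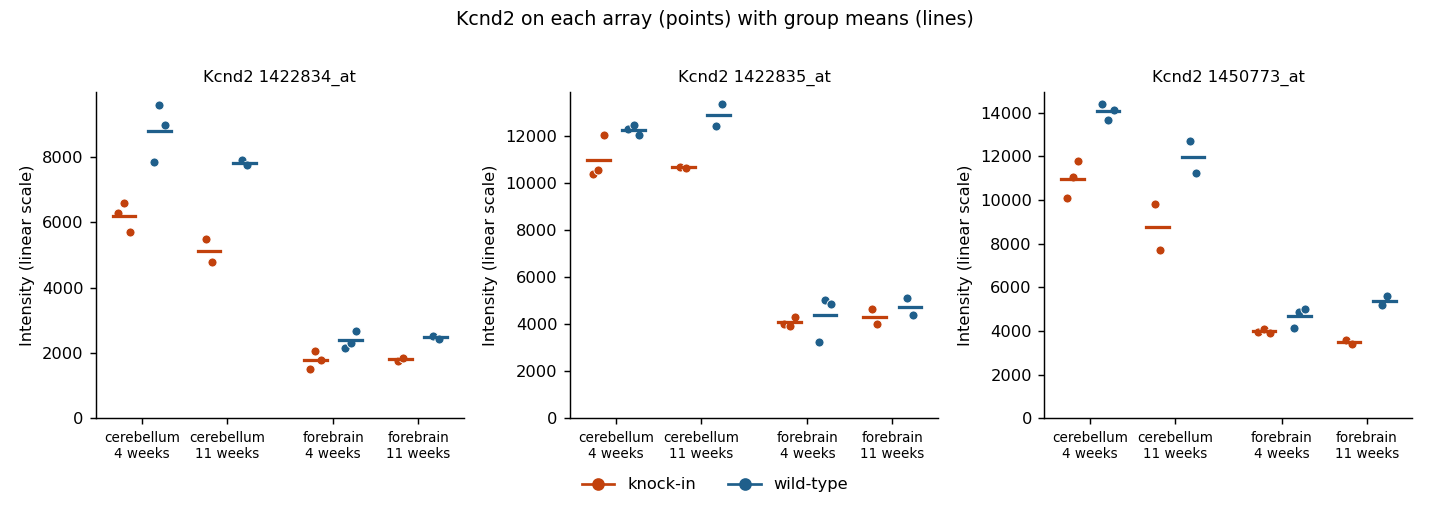
Kcnd2 intensity (linear scale, from 0) on each array for its 3 probe sets. Points are arrays, lines are group means, and knock-in stands left of wild type. The 2 outer panels, 1422834_at and 1450773_at, show knock-in arrays below wild-type arrays in each region and age, and all 3 panels show higher values in cerebellum.

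Among the remaining KChIP genes, no kept probe set passed the genotype test in forebrain. Kcnip1, a calcium sensor subunit found in many inhibitory neurons, read 2697, 2744 and 3027 by 1416785_at on knock-in forebrain arrays at 4 weeks, against 2694, 1688 and 1972 on wild-type ones. At 11 weeks it read 2211 and 2858 in knock-in forebrain, against 1433 and 2511 in wild type. The difference over ages was 0.42 ± 0.15 and did not pass (adjusted p = 0.0718), though it did pass without wild-type replicate 1 at 4 weeks or without wild-type replicate 2 at 11 weeks. Its second probe set, 1448459_at, differed by 0.21 ± 0.19 (adjusted p = 0.479). In cerebellum the direction was the opposite for 1416785_at: knock-in arrays read 3736, 3750 and 3268 at 4 weeks, against 4694, 4279 and 4849 in wild type, and 2956 and 2902 at 11 weeks, against 4039 and 4744.

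Kcnip2, a KChIP whose product also partners Kv4 channels in heart, was measured above the limit in forebrain only. Its probe set 1425870_a_at read 2240, 2093 and 3423 on knock-in forebrain arrays at 4 weeks, against 2591, 3732 and 3747 on wild-type ones, and 2691 and 2552 at 11 weeks, against 3214 and 3355. The genotypes overlapped at 4 weeks and were apart at 11 weeks. The difference of -0.36 had a standard error of 0.49, because the model shares its spread with the dim cerebellar arrays (adjusted p = 0.658, and 0.185 when only forebrain arrays entered). The Kcnip2 probe set that was not kept, 1421783_a_at, went the other way, below the limit on every array. It read 580 to 689 in knock-in forebrain at 4 weeks, against 230 to 461 in wild type. At 11 weeks it read 476 to 501, against 436 to 440. Kcnip4, whose product can slow the inactivation of Kv4 channels, differed by -0.21 ± 0.15 by 1450370_a_at (adjusted p = 0.363) and by -0.15 ± 0.11 by 1451840_at (adjusted p = 0.355). All knock-in arrays lay below the wild-type ones at 4 weeks by 1450370_a_at and at 11 weeks by 1451840_at, and the genotypes overlapped otherwise.

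**Figure D4:**
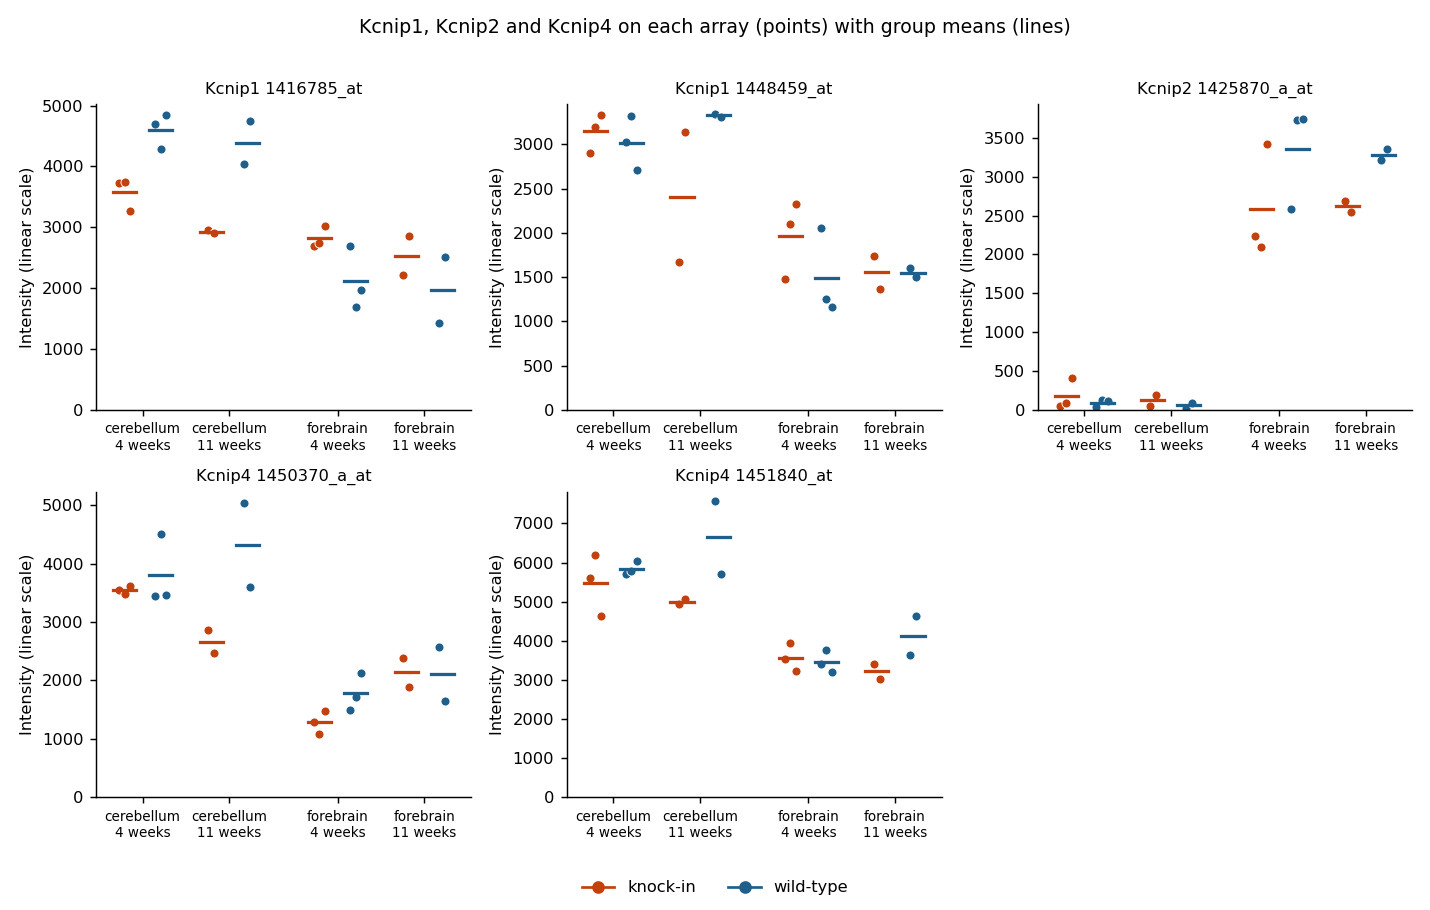
Kcnip1, Kcnip2 and Kcnip4 intensity (linear scale, from 0) on each array for their 5 kept probe sets. Points are arrays, lines are group means, and knock-in stands left of wild type. Kcnip2 is at most 410 in cerebellum and at least 2093 in forebrain, while Kcnip1 and Kcnip4 read higher in cerebellum.

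Counted together, 4 of the 10 kept member probe sets were lower and 0 higher in knock-in forebrain over both ages, which is 2 of Kcnip3 and 2 of Kcnd2. Over all 15627 kept probe sets, 5.13% were called lower and 8.36% higher in that comparison. Of all those calls, 62.0% were higher with the deposited scaling, 47.8% after quantile normalization and 39.3% after cyclic loess normalization, and the count of members called lower was 4 under each. The median member difference was -0.28, against 0.04 over all kept probe sets. At 4 weeks 2 of 10 were called lower, against 2.42% of all kept probe sets (4.95% were called higher), and at 11 weeks 2 of 10, against 0.480% (0.384% higher). Replicate 3 of knock-in forebrain at 4 weeks is the array described as cerebellum. Without it the count over ages was 4 and that at 4 weeks was 1. Other single arrays left out gave 0 to 2 at 4 weeks and 0 at 11 weeks, so the calls at 11 weeks rest on every array left out. The comparisons over ages and at single ages use the same arrays. The genes were chosen on the cerebellar arrays, which may share animals with the forebrain ones. The forebrain counts are therefore read as a description of the chosen genes.

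In 3 of the 10 probe sets, Kcnip3 1418544_at and both called ones of Kcnd2, every knock-in forebrain array lay below every wild-type one of its age at both ages, against 6.29% of all kept probe sets, and 0 lay wholly above, against 8.47%. At 4 weeks alone 4 were wholly below (11.5%) and 1, Kcnip1 1416785_at, wholly above (17.2%). At 11 weeks alone 6 were wholly below (21.1%) and 0 above (26.9%). In cerebellum this held for 4 of 10, the same 3 and Kcnip1 1416785_at, against 3.87%, and 0 lay wholly above, against 5.78%. The count below was 4 at 4 weeks alone (7.59%), with 0 above (11.2%). At 11 weeks in cerebellum 9 of 10 had both knock-in arrays below both wild-type arrays, all but Kcnip2, against 22.4%, and 0 were wholly above (26.9%). The median member difference in cerebellum was -0.13 at 4 weeks and -0.50 at 11 weeks, against 0.03 and 0.02 over all kept probe sets. Since the genes were chosen on a cerebellar genotype difference, these cerebellar counts and medians are a description only. Several of the probe sets share a gene, and each group held 2 arrays at 11 weeks.

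**Figure D5:**
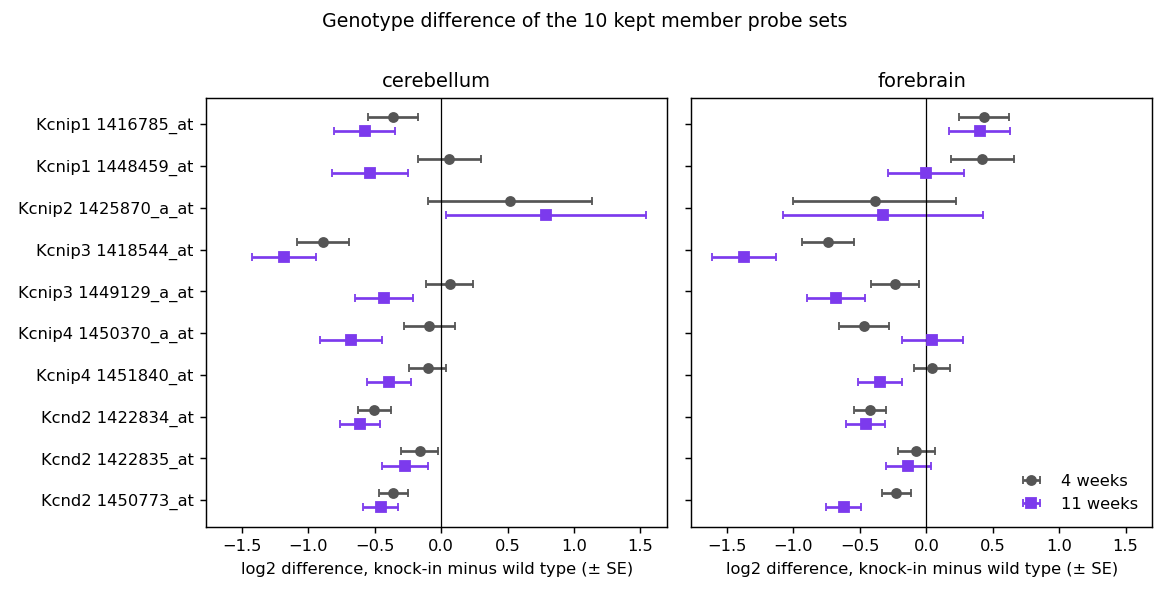
Knock-in minus wild-type log2 difference with its standard error (bars) for the 10 kept probe sets, at 4 weeks (circles) and 11 weeks (squares), in cerebellum (left, described with no test) and forebrain (right). Kcnip3 1418544_at lies farthest below 0 in each region and age, and Kcnip2 has the widest errors.

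No member passed the test for age in wild type. From 4 to 11 weeks, 0 of the 10 probe sets passed in wild-type cerebellum, where limma called 0.0448% of all kept probe sets higher and 0.154% lower, and 0 in wild-type forebrain, where it called 0.00% higher and 0.00640% lower. At an unadjusted p under 0.05 the members' counts were 0 and 0, against 1455 and 961 of all 15627 kept probe sets. The differences of Kcnip3 1418544_at were -0.14 ± 0.22 in cerebellum and 0.37 ± 0.22 in forebrain. The wild-type cerebellum arrays also entered the difference by which Kcnip3 was chosen. For the change of the forebrain genotype difference with age, 0 of 10 passed, and 0.00% of all kept probe sets did. Unadjusted, 1 of 10 was under 0.05, Kcnd2 1450773_at, and 971 of all 15627. With 2 arrays at 11 weeks, these intervals are wide.

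Between regions in wild type, 7 kept probe sets were higher and 2 lower in cerebellum than in forebrain, which is all 9 that exceeded the limit in both regions. Kcnip2 was kept through forebrain alone and is described apart. Of all kept probe sets, 26.6% were higher and 21.3% lower. Kcnd2 was higher in cerebellum by 1.77 ± 0.10 (1422834_at), 1.47 ± 0.11 (1422835_at) and 1.37 ± 0.09 (1450773_at) on the log2 scale, with adjusted p of 4.33e-10, 1.80e-08 and 2.21e-09. Wild-type arrays read 7736 to 9568 in cerebellum and 2159 to 2683 in forebrain by 1422834_at, and the regions overlapped for none of the 3 probe sets. Kcnip1 was higher in cerebellum by 1.17 ± 0.15 and 1.08 ± 0.19, and Kcnip4 by 1.07 ± 0.15 and 0.72 ± 0.11, also with no overlap between wild-type arrays.

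Kcnip2 and Kcnip3 were the genes lower in wild-type cerebellum than in wild-type forebrain. Kcnip2 1425870_a_at read 26.6 to 126 in cerebellum, below the limit on every array, and 2591 to 3747 in forebrain, which makes forebrain at least 5.14-fold higher. In knock-in arrays it read 42.6 to 410 in cerebellum and 2093 to 3423 in forebrain, at least 3.63-fold higher in forebrain. Kcnip3 was lower in cerebellum by a log2 difference of -0.46 ± 0.16 for 1418544_at (adjusted p = 0.0220) and -0.50 ± 0.14 for 1449129_a_at (adjusted p = 0.00787). The wild-type cerebellum arrays of this test also entered the difference by which Kcnip3 was chosen, so its p-values are not free of that choice. The arrays of the regions overlapped for both, and the call of 1418544_at was lost without replicate 3 of wild-type forebrain at 4 weeks, replicate 2 of wild-type forebrain at 11 weeks or replicate 1 of wild-type cerebellum at 11 weeks (adjusted p up to 0.0857).

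Other genes around the channel were read from lists of partners and relatives. Of 14 listed Kv4 partners, 9 were measured, and 1 was lower and 0 higher in knock-in forebrain. Over all kept probe sets 5.13% were called lower and 8.36% higher there, which is the background for the 3 lists. The lower partner was Kcnab3, a beta subunit of voltage-gated potassium channels, which averaged 1249 ± 237 over knock-in arrays at 4 weeks, against 2016 ± 133 over wild-type ones (SD, n = 3 each), and 1339 ± 83.0 at 11 weeks, against 2386 ± 199 (SD, n = 2 each). Its difference was -0.76 ± 0.10 (adjusted p = 0.00067), and it also passed at each age. Of 9 other neuronal calcium sensors, 5 were measured and 1 was higher: Ncs1, a regulator of transmitter release, by 0.49 ± 0.14 (adjusted p = 0.0316). Hpcal1, a hippocalcin relative, was higher at 4 weeks (0.38 ± 0.11, adjusted p = 0.0490). At that age 4.95% of all kept probe sets were called higher and 2.42% lower. Of 8 listed partners and reported targets of the DREAM protein, 5 were measured and 1 was lower: Bdnf, a neurotrophin, at 2253 ± 155 over knock-in forebrain arrays at 4 weeks, against 3054 ± 475 over wild-type ones, and 2249 ± 224 at 11 weeks, against 3354 ± 755. Its difference was -0.49 ± 0.15 (adjusted p = 0.0398). The median differences of the lists were 0.09, -0.04 and 0.02, against 0.04 over all kept probe sets. Calls of single genes outside the members, here and below, were not followed with arrays left out or under other settings. How firm they are was not tested.

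Between regions in wild type, 4 of the 9 measured Kv4 partners were higher and 4 lower in cerebellum, where 26.6% of all kept probe sets were called higher and 21.3% lower. Dpp6, an auxiliary subunit that speeds Kv4 channels, was higher by 0.71 ± 0.11 (adjusted p = 6.34e-05), and Kcnab2, a further beta subunit, was lower (-1.57 ± 0.10, adjusted p = 1.88e-09). Of the other calcium sensors, 1 was higher and 4 lower in cerebellum: Hpcal1 was higher by 1.78 ± 0.09 (adjusted p = 1.07e-10), and Hpca, the hippocampal sensor hippocalcin, was lower (-2.39 ± 0.07, adjusted p = 1.71e-13). Of the DREAM list, 2 were higher and 1 lower.

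The probe sets whose profiles were most like those of Kcnip3 were ranked by Pearson's r over the 20 arrays after each region's mean was removed, among 14408 kept probe sets with 1 gene symbol. This is a description, and the arrays share genotype groups. The genotype difference was not removed, so r also holds it. The 20 arrays include the cerebellar ones on which Kcnip3 was chosen. For 1418544_at the 5 nearest were Ndufaf4 (r = 0.893), Lpgat1 (0.891), Fut9 (0.891), Atrx (0.885) and Agfg1 (0.878). Kcnd2 stood close behind, with 1450773_at at rank 7 (r = 0.859) and 1422834_at at rank 23 (0.813), while 1422835_at was at rank 1103 (0.534). For 1449129_a_at the nearest were Dclk1 (0.916), Gria4 (0.907), Cnr1 (0.898), Oip5os1 (0.897) and Kdm7a (0.893), and Kcnd2 1450773_at was at rank 243 (0.712). The Kcnip3 probe sets correlated with each other at 0.565, so neither was among the other's nearest profiles.

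Cell type markers also differed between genotypes in these groups. In forebrain, the mean log2 level of 8 measured markers of cortical pyramidal neurons was 11.3 to 11.4 in knock-in and 11.8 to 11.9 in wild type at 4 weeks, and 11.1 to 11.4 in knock-in and 11.9 in wild type at 11 weeks. Of the 8, 1 was called lower: Rasgrf2, a Ras exchange factor, by a difference of -2.22 ± 0.25 (adjusted p = 0.000199). The median difference of the 8 was -0.30. Camk2a, on this list and not called, read 4828 to 8321 in knock-in and 9218 to 14567 in wild-type forebrain. Bcl11b, also not called, overlapped, at 3472 to 5768 against 4287 to 6182. Both were below the limit in cerebellum, and the model shares its spread with those arrays. An uncalled marker of this list is therefore not read as unchanged. In forebrain 2 of 8 inhibitory interneuron markers and 2 of 8 astrocyte markers were lower, 1 of 8 microglia markers was higher, and of 10 Purkinje cell markers 4 were lower and 1 higher, where 5.13% of all kept probe sets were called lower and 8.36% higher. Of 7 granule neuron markers 1 was lower and 1 higher there, and 0 of 6 oligodendrocyte and 0 of 5 choroid plexus markers were called. The Purkinje cell marker Pcp2 was below the limit on all forebrain arrays, so that list is not read as Purkinje cells in forebrain. In cerebellum, the mean of 10 Purkinje cell markers was 14.4 to 14.5 in knock-in and 14.7 in wild type at 4 weeks, and 14.2 in knock-in and 14.6 to 14.7 in wild type at 11 weeks. Over ages, 3 of these 10 genes outside the members were called lower (Rgs8, Cacna1g and Plcb4), where 1.10% of all kept probe sets were called lower and 2.25% higher. None of the 10 was called at 4 weeks or at 11 weeks alone. The 7 measured granule neuron markers had a median difference of -0.05 there. The 3' to 5' ratio of actin, a sign of RNA quality, was 0.934 to 1.06 in knock-in and 1.09 to 1.15 in wild-type forebrain at 11 weeks, and that of GAPDH lay between 0.744 and 0.903 on all arrays. In forebrain at 4 weeks the GAPDH ratio was 0.827 to 0.890 in knock-in and 0.744 to 0.828 in wild type. The actin ratio there was 1.09 to 1.22 in knock-in and 1.15 to 1.23 in wild type. The part of these differences in the lower Kcnip3 and Kcnd2 values was not tested.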

How the data were processed

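Total RNA of 20 mouse brain samples had been hybridised to single-channel oligonucleotide arrays. The deposited file gives each probe set an intensity, not log-transformed. After trimming 2% at each end, every array of the authors had a mean intensity between 2500.59 and 2500.75, as after scaling to a common mean. The sources used here do not give the software. Arrays have no read depth: their number limits the precision.

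Groups follow the title codes. From the deposited intensities log2(intensity + 16) was taken, and 15627 of 22690 probe sets were kept (above the array's 40th percentile on 2 or more arrays, 64 control probe sets left out). The model, limma 3.58.1 (lmFit, eBayes) in R 4.3.3, held a mean for each group and used all 20 arrays, with 12 residual and 3.45 prior degrees of freedom. Adjusted p-values are two-sided, from this model, with Benjamini-Hochberg adjustment over all kept probe sets, and calls are at an adjusted p under 0.05. In values over ages, each age has equal weight. The scripts were tested on simulated data. Genes were named through the array's probe annotation, where 20380 probe sets carry a single symbol, 691 more than 1 and 1555 no symbol, and 20364 matched the RefSeq gene list by Entrez number. Promoter windows are RefSeq sequences of GRCm38.p6. The members, gene lists and tests were chosen with earlier results of these data known. The text names all member probe sets, up to 4 called genes of each list by p, and the 5 probe sets most like each Kcnip3 probe set. A gene outside the members is read from its brightest kept probe set.

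Alternatives were offsets of 1 and 64, quantile and cyclic loess normalization, no filter, a filter at the 60th percentile, only the compared arrays, replicate blocks, and each array left out. Same-numbered arrays did not deviate together: correlations of their deviations lay between -0.099 and 0.052 for genotypes and between -0.023 and 0.113 for regions.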

Additional observations from a re-analysis of the deposited data

Results flagged for a closer look

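At 4 weeks, Kcnip1 1416785_at moved in opposite directions in the regions: every knock-in array was below every wild-type array in cerebellum (-0.36 ± 0.19 on the log2 scale) and above every wild-type array in forebrain (0.44 ± 0.19). The cerebellar minus the forebrain difference was -0.80, and this difference was not tested. In forebrain the lowest knock-in array and the highest wild-type array were 2697 and 2694, so the separation there was narrow. The other wild-type arrays read 1688 and 1972.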

How the results depend on the processing

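The count of 4 lower members in knock-in forebrain over ages was 3 or 4 under all 9 other settings. Leaving out 1 array gave 3 or 4 called members, with Kcnip1 1416785_at as a higher call in 2 of those fits. At 4 weeks, the count of 2 was 1 after quantile or cyclic loess normalization and 0 with only the compared arrays. With no filter neither lower call passed, and the count of 1 was a higher call of one of the 4 probe sets below the limit. Leaving out 1 array gave 0 to 2. At 11 weeks, the count of 2 was 1 with no filter and with the fixed replicate block, and 0 with only the compared arrays and without any 1 array. Over all kept probe sets, the calls over ages were 2108, and 1301 with only the compared arrays. At 4 weeks they were 1151 and 223. At 11 weeks they were 135, and 51 with no filter, 80 with the fixed replicate block and 0 with only the compared arrays (limma, with 2122 of 15627 at an unadjusted p under 0.05). The replicate block moved no other count of members by over 1.5 times, and the arrays shared only a number. Kcnip3 1418544_at in cerebellum at 4 weeks ranged from -1.15 to -0.72 with 1 array left out. The Kcnip3 ratio in forebrain ranged from -0.71 to -0.48 (exact p up to 0.0333). With Kcnip2 counted, the 10 regional calls were 9 or 10 with 1 array left out. Differences with age, and the change of the genotype difference with age, were followed under the alternatives for Kcnip3 and Kcnd2 only. Among the tested differences that were followed, signs turned only in ones that had not passed, with 1 array left out. With age in wild-type cerebellum they turned for Kcnip3 1418544_at (-0.40 to 0.026) and 1449129_a_at (-0.28 to 0.016). With age in wild-type forebrain they turned for Kcnip3 1449129_a_at (-0.21 to 0.064), Kcnd2 1422834_at (-0.0066 to 0.15) and 1422835_at (-0.063 to 0.25). By genotype in forebrain at 4 weeks they turned for Kcnip4 1451840_at (-0.033 to 0.11) and Kcnd2 1422835_at (-0.28 to 0.036). At 11 weeks they turned for Kcnip4 1450370_a_at (-0.28 to 0.37) and Kcnip1 1448459_at (-0.17 to 0.17). In the change of the genotype difference with age they turned for Kcnd2 1422834_at (-0.14 to 0.071) and 1422835_at (-0.17 to 0.14). Of the untested cerebellar genotype differences at 4 weeks, signs also turned for Kcnip3 1449129_a_at (-0.084 to 0.22), Kcnip1 1448459_at (-0.012 to 0.13), Kcnip4 1450370_a_at (-0.16 to 0.038) and 1451840_at (-0.20 to 0.012), and at both ages for Kcnip2 (-0.30 to 1.13 and -0.050 to 1.63), which was below the limit. Apart from fewer arrays or other probe sets tested, the cause was not tested. Dim signal limits Kcnip2 in cerebellum and Kcnd3.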
